A study of Mus musculus with 4 samples.

Results

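The nuclear-encoded subunits of oxidative phosphorylation were followed in single-cell RNA-Seq data of cultured mouse spleen B cells. Members were taken by symbol, as genes whose names start with Nduf followed by a, b, c, s, or v and a number, with Uqcr, with Cox and a number from 4 to 8, or with Atp5. Of 31053 genes in the feature table, 80 carried such a symbol, and 73 of these had at least 1 unique molecular identifier (UMI, a tag that marks 1 captured RNA molecule) in at least 1% of the 18534 cells kept. They comprise 36 genes of complex I, 8 of complex III, 13 of complex IV, and 16 of ATP synthase, among 10474 genes detected at the same limit.

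The samples were B cells purified from WT spleen in 2 states, with 2 samples each. Bregs-CpG were cultured for 3 days with the TLR9 agonist CpG B ODN 1668. Bregs-TLR had the same culture and also received LPS, PMA, and ionomycin for 5 hours at its end, so CpG was common to both states. Cell barcodes carried only a library number from 5 to 8, and no label ties a number to a sample, so each library is described on its own, with no mean over libraries and no test between culture states.

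Oxidative phosphorylation moves electrons from NADH through complex I, and from succinate through complex II, by way of complexes III and IV to oxygen. Complexes I, III, and IV pump protons across the inner mitochondrial membrane, and ATP synthase uses the returning protons to make ATP. The subunits come from separate genomes: the mitochondrial DNA encodes a small catalytic set, and the nucleus encodes the rest, which are made in the cytosol and imported. Resting lymphocytes have a low demand for ATP, and activated B cells raise mitochondrial mass and respiration.

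Libraries 5, 6, 7, and 8 held 4196, 4714, 5621, and 4003 kept cells, with median depths of 8752, 8785, 10355, and 10077 UMIs per cell. The B cell markers were present (Cd79a had a UMI in 98.1% of kept cells), and markers of T, myeloid, NK, and dendritic cells were few. Of 7 T cell genes Lck alone was detected at the 1% limit, with Cd3e, Cd4, and Cd8a at 0 and the list at 3.31 to 7.69 CPM (UMIs per 1000000 UMIs of the kept cells of a library). Of 7 myeloid genes Cd68 and Itgam were detected, with Lyz2, S100a8, and S100a9 at 0 and the list at 3.13 to 4.22, and none of 5 NK cell genes was, with Ncr1, Klrb1c, Nkg7, and Gzma at 0. Of 5 dendritic cell genes Flt3 and Bst2 were detected, with Siglech at 0, and the list summed to 120, 124, 78.4, and 68.4 CPM in libraries 5 to 8. Libraries 7 and 8 stood apart from libraries 5 and 6 across the transcriptome. Their B cell list summed to 7388 and 7299 CPM against 13914 and 14449 in libraries 5 and 6, with 5 of 6 markers lower. Of 7 plasma cell genes 6 were detected. That list summed to 390 and 339 CPM in libraries 7 and 8 against 1614 and 1779 in libraries 5 and 6. Mzb1 and Derl3 were lower and Sdc1 was higher. The 5 erythroid genes summed to 219 and 285 against 4.62 and 4.32, nearly all from Hbb-bt, the one detected at the 1% limit, while Hba-a1 and Hba-a2 were at 0. The part of these differences in the results given here was not tested. Of the kept barcode sequences, 28 occurred in more than 1 library.

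The summed RNA of the 73 subunits differed little between libraries. It was 19456 CPM in library 5 (95% Poisson interval 19416 to 19497), 19024 in library 6 (18986 to 19062), 18516 in library 7 (18483 to 18549), and 19060 in library 8 (19020 to 19101). The highest library was 1.05 times the lowest, and the intervals of libraries 6 and 8 overlapped. The intervals in these results cover counting error only. Within single cells the subunits made up a median of 1.94%, 1.90%, 1.85%, and 1.91% of UMIs, and 90% of the cells of library 5 lay between 1.57% and 2.38%. With another denominator, which leaves out mitochondrial, cytosolic ribosomal protein, and immunoglobulin genes, the highest library was 1.20 times the lowest, with libraries 5 and 6 at 36637 and 35286 and libraries 7 and 8 at 30514 and 32367 on that scale.

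The complexes differed in how they stood between the libraries. Complex I, which oxidizes NADH, stood at 5834, 5711, 5586, and 5743 CPM in libraries 5 to 8, and complex III, which passes electrons to cytochrome c, at 2211, 2159, 2186, and 2320. On CPM these values overlapped between the library pairs. Complex I was lower in libraries 7 and 8 with the other denominator (9206 and 9752 against 10986 and 10592) and with TMM factors (trimmed mean of M values, which rest on the bulk of genes), and higher per kept cell. Complex III was lower with the other denominator (3603 and 3939 against 4163 and 4004), overlapped with TMM factors, and was higher per kept cell. Complex IV, cytochrome c oxidase, was higher in libraries 5 and 6 (5677 and 5504) than in libraries 7 and 8 (4621 and 4827). This order held under all 4 scalings, which are CPM, the other denominator, TMM factors, and UMIs per kept cell. Its sum includes the assembly factor gene Cox7a2l (985, 960, 352, and 370 CPM), which gave most of the gap. Without Cox7a2l the order held on CPM but not per kept cell, where library 8 was above libraries 5 and 6. Ndufa4 (436, 419, 482, and 475), whose protein is now assigned to complex IV, was counted in complex I by its symbol. The symbol rule left out the complex III subunit gene Cyc1 and the complex I subunit gene Ndufab1, so the sums of complexes III and I lack them. ATP synthase had the opposite order on CPM, with 5735 and 5651 against 6122 and 6171, and per kept cell, but the pairs overlapped with TMM factors (5948, 5752, 5848, and 6120), and with the other denominator libraries 7 and 8 were not higher (10089 and 10479 against 10800 and 10481). A ratio of complex IV to ATP synthase does not depend on the denominator, but it also includes Cox7a2l. For 100 UMIs of complex IV genes there were 101 and 103 of ATP synthase in libraries 5 and 6, and 132 and 128 in libraries 7 and 8.

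**Figure D1:**
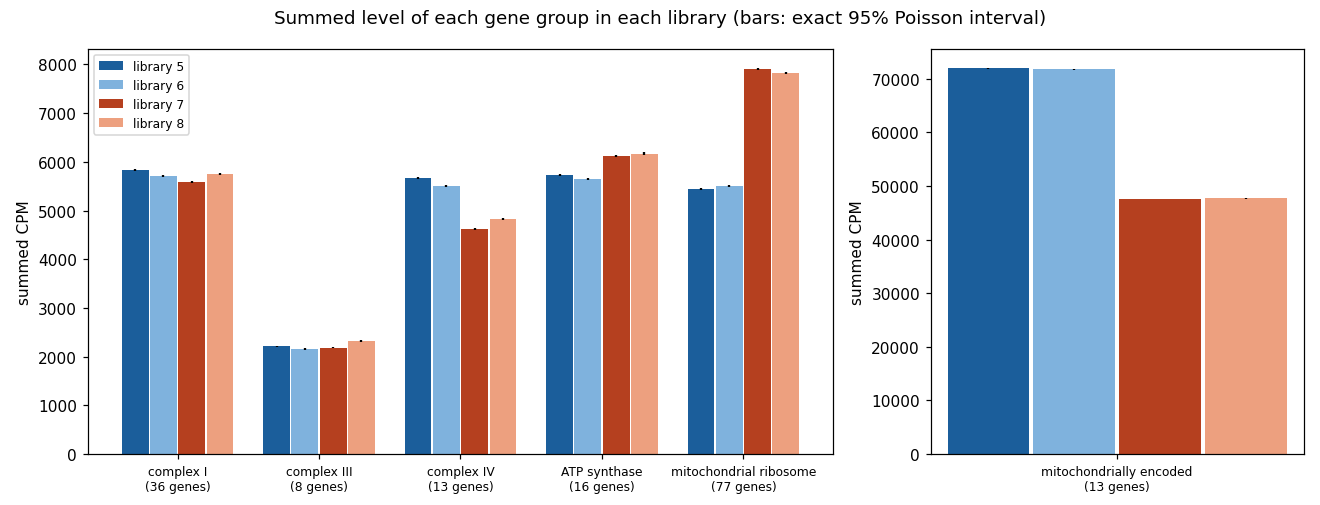
Summed CPM (vertical axis, starting at 0) of each gene group in libraries 5 to 8, with exact 95% Poisson intervals as bars. Complex IV, with Cox7a2l in its sum, was lower in libraries 7 and 8. ATP synthase was higher there on this scale but not with TMM factors or the other denominator. The 77 mitochondrial ribosomal protein genes had 5439 and 5510 in libraries 5 and 6 and 7910 and 7821 in libraries 7 and 8. The 13 mitochondrially encoded genes had the opposite order.

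The subunits encoded in the mitochondrial DNA were lower in libraries 7 and 8 under all 4 scalings. So was the sum of nuclear complex IV, which includes Cox7a2l, but without that gene this did not hold per kept cell. The 13 mitochondrially encoded protein genes summed to 71975 and 71790 CPM in libraries 5 and 6 and to 47578 and 47688 in libraries 7 and 8, a ratio of 1.51 between the highest and the lowest. Nuclear subunits per 100 mitochondrially encoded UMIs were therefore 27.0, 26.5, 38.9, and 40.0. In complex III the ratio ran from 31.3 in library 6 to 62.3 in library 8, and in complex IV from 13.9 to 20.4. The mitochondrial ribosome, which translates the mitochondrially encoded subunits, stood at 5439, 5510, 7910, and 7821 CPM. A low mitochondrial share was also a criterion for keeping cells, and the median share was 7.22% and 7.18% in libraries 5 and 6 and 4.61% and 4.65% in libraries 7 and 8.

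Levels ranged widely among the subunits of each complex. Molecules were counted by their 3′ ends, so CPM were not divided by transcript length. The median subunit had 202 CPM over all kept cells, against 16.6 for all detected genes, and 67 of 73 members had a UMI in at least 50% of the cells. In complex I the highest gene was Ndufa4 (455 CPM), which the symbol places here although its protein is now assigned to complex IV. It was followed by Ndufa2 (307) and Ndufa13 (290), while the catalytic core genes Ndufs1 (35.5) and Ndufv1 (46.9), which carry the iron-sulfur and NADH-binding sites, and the accessory gene Ndufa9 (48.1) were lowest. In complex III the hinge protein gene Uqcrh led with 815 CPM, ahead of Uqcrq and Uqcr10 (323 and 318), and the large core protein genes Uqcrc1 and Uqcrc2 had 83.9 and 121. The Rieske iron-sulfur protein gene Uqcrfs1 had 121. In complex IV, Cox4i1, Cox8a, and Cox7a2l were highest (830, 688, and 647). In ATP synthase the level was 618 for Atp5e, 512 for Atp5b, and 512 for Atp5h. The lowest was Atp5s (7.01), whose symbol matches the rule but which is not a core subunit gene.

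**Figure D2:**
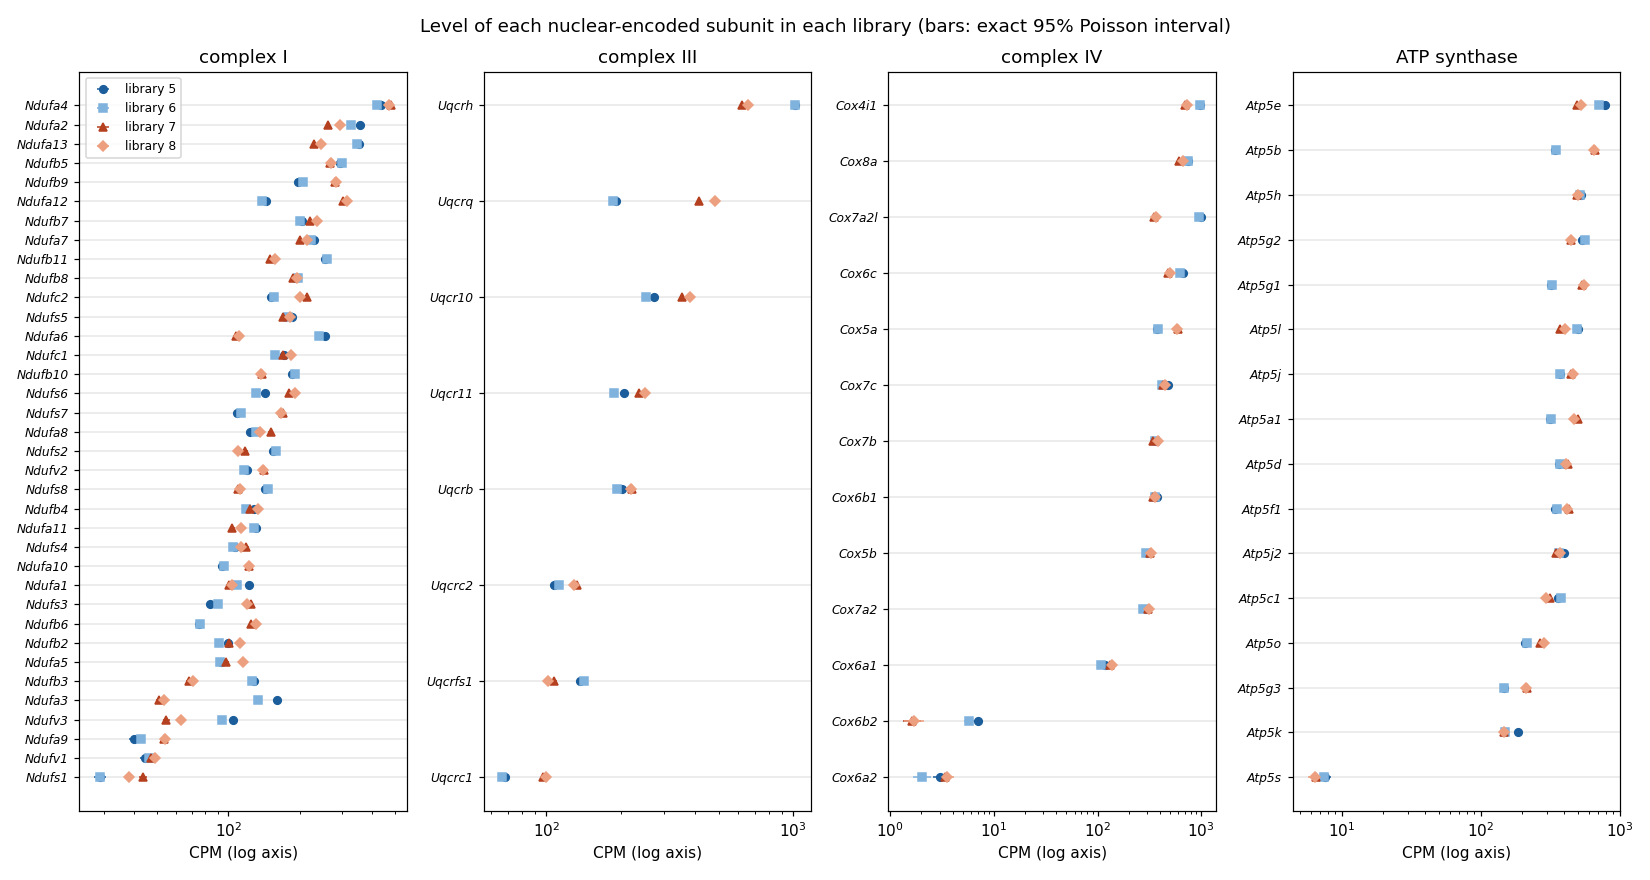
CPM (horizontal axis, log scale) of each of the 73 subunits in libraries 5 to 8, by complex, with exact 95% Poisson intervals as bars that are often smaller than the symbols. Libraries 5 and 6 lie close together, as do libraries 7 and 8, and the widest gaps between the pairs belong to Uqcrq, Ndufa12, Cox7a2l, Cox6b2, Ndufa3, and Ndufa6.

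The order of the genes within a complex was shared inside each pair of libraries and less so between pairs. Across the 16 ATP synthase genes, Spearman's rho was 0.97 between libraries 5 and 6 and 0.99 between libraries 7 and 8, and 0.42 to 0.53 for the 4 pairs that crossed. Across the 36 complex I genes it was 0.99 and 0.98 within pairs and 0.67 to 0.72 across, and across the 13 complex IV genes 0.99 and 0.98 against 0.82 to 0.92. These values describe genes within the same libraries, which are not independent replicates. The top ATP synthase genes were Atp5e, Atp5g2, and Atp5h in libraries 5 and 6, and Atp5b and Atp5g1 led in libraries 7 and 8.

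A subunit was counted as different where each of libraries 7 and 8 was at least 25% higher, or at least 20% lower, than each of libraries 5 and 6. By this limit 18 of 73 subunits (24.7%) were higher in libraries 7 and 8, against 35.0% of all detected genes. Another 15 (20.5%) were lower, against 27.2% of all genes. Among the 1170 genes whose level lay between the 10th and 90th percentile of the subunits' levels, 48.2% were higher and 21.1% lower. These differences in share were not tested. Complex I had 10 higher and 9 lower of 36, complex III 3 and 2 of 8, complex IV 1 and 3 of 13, and ATP synthase 4 and 1 of 16. Inside the pairs, 1 subunit (Cox6a2) differed by the limit between libraries 5 and 6, against 4.79% of all genes, and 0 differed between libraries 7 and 8, against 6.15%. The median log2 ratios of the subunits over the 4 crossing pairs were 0.02, 0.08, 0.09, and 0.12, and those of all genes 0.17, 0.13, 0.12, and 0.07.

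The balance of directions depended on the denominator. Without mitochondrial, cytosolic ribosomal protein, and immunoglobulin genes in it, 9 subunits were higher (28.7% of all genes) and 20 lower (33.1%). This scaling moved the median log2 ratio of all genes between libraries 7 and 5 from 0.17 to -0.02. With TMM factors the counts were 14 (32.1%) and 18 (30.1%), and per kept cell they were 20 (38.1%) and 12 (24.8%). Under all 4 scalings 9 subunits were higher (28.7% of all genes) and 12 lower (24.8%). The genes described as higher or lower here are among these 21 unless stated. The scalings do not vary the cell filter, and in cells under 5% mitochondrial UMIs the calls of Atp5e, Atp5g3, and Cox4i1 were among those lost.

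**Figure D3:**
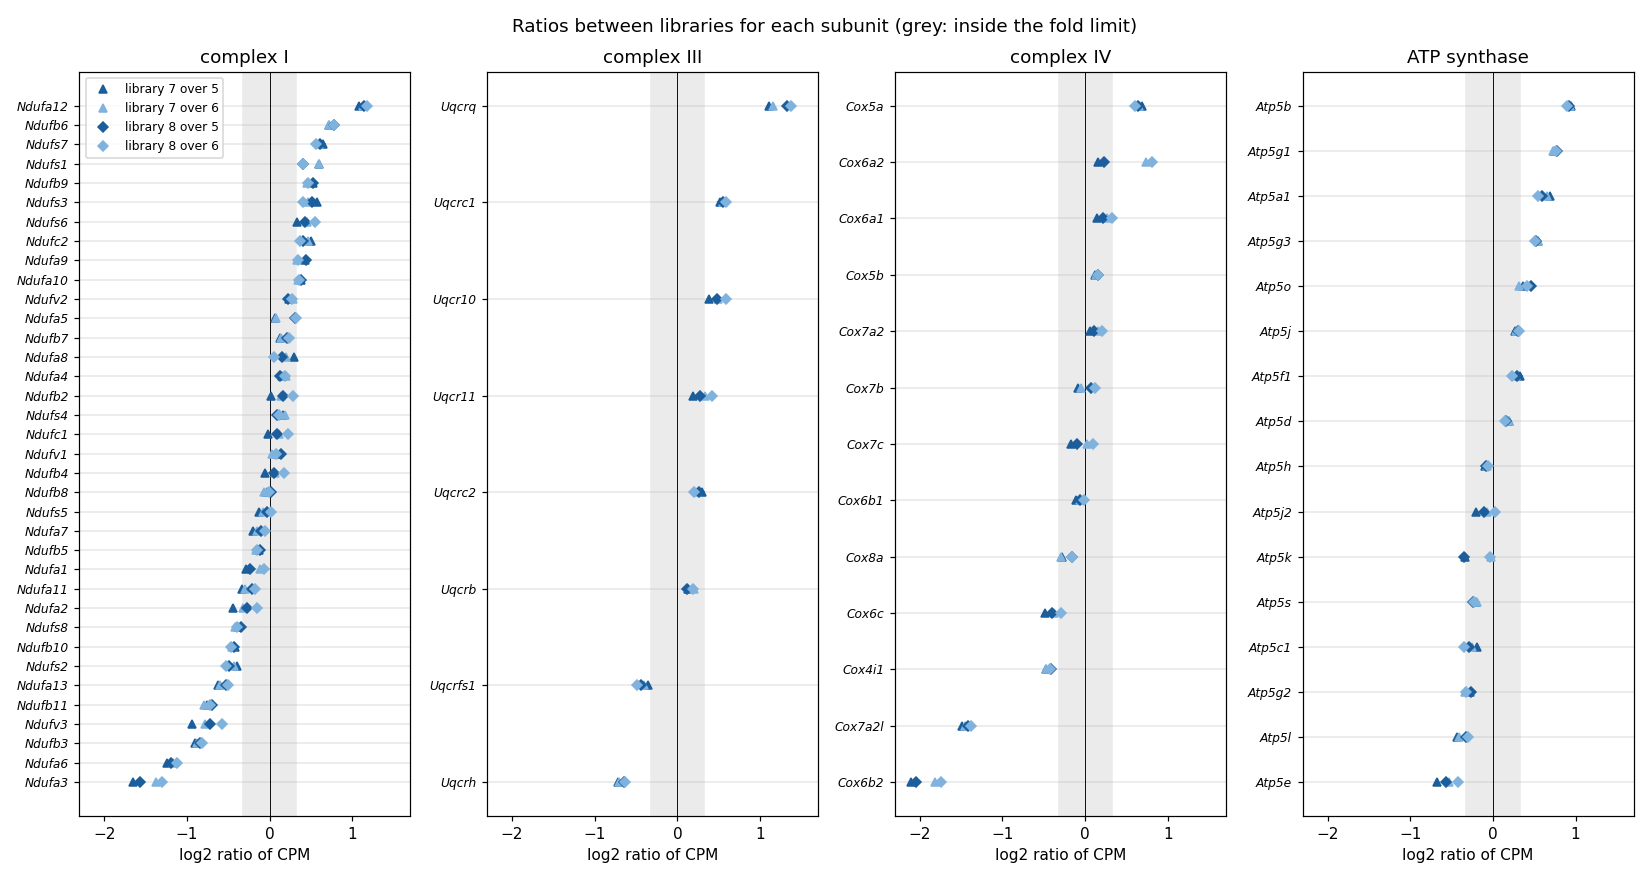
log2 ratio of CPM (horizontal axis) for each subunit, with 1 symbol for each of the 4 pairs that set library 7 or 8 against library 5 or 6. The grey band marks ratios inside the limit, and 18 subunits have all 4 symbols to its right and 15 to its left.

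In complex I, the accessory subunit gene Ndufa12 had the widest difference upward. It stood at 143 and 139 CPM in libraries 5 and 6 and at 303 and 315 in libraries 7 and 8, which is 2.12 to 2.27 times higher. Ndufb6, an accessory subunit of the membrane arm, had 75.6 and 75.8 against 125 and 130. Ndufs7, a core subunit that holds the last iron-sulfur cluster before ubiquinone, had 108 and 113 against 170 and 166. In each of these genes the 2 libraries of a pair lay close together. That the pairs did not overlap follows from the limit by which these genes were chosen.

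The accessory genes Ndufa3 and Ndufa6 had the widest differences downward in complex I. Ndufa3 stood at 160, 133, 51.1, and 53.9 CPM, and Ndufa6 at 254, 241, 107, and 111. The levels of Ndufa3 in libraries 5 and 6 were 2.47 to 3.13 times those in libraries 7 and 8. Ndufb3 (128, 126, 68.4, and 71.3), Ndufb11 (254, 259, 150, and 157), and Ndufv3 (105, 94.4, 54.8, and 63.4) were lower in libraries 7 and 8 as well, as was Ndufa13 (353, 348, 229, and 246). Of the 29 accessory subunits, 7 were higher and 7 lower by CPM, against 35.0% and 27.2% of all genes. The 7 core genes summed to 682, 700, 754, and 734 CPM. This order did not hold with the other denominator, where libraries 7 and 8 were lower.

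In complex III the pattern was widest in 2 small subunits with opposite directions. Uqcrq, a small subunit at the ubiquinone side of the complex, stood at 191 and 186 CPM in libraries 5 and 6 and at 414 and 481 in libraries 7 and 8, or 2.16 to 2.58 times higher. Uqcrh, the hinge protein between cytochrome c1 and cytochrome c, was the most abundant member in libraries 5 and 6 (1021 and 1017) and lower in libraries 7 and 8 (621 and 654). The core protein gene Uqcrc1 (68.2, 66.5, 97.3, and 100) and the Rieske gene Uqcrfs1 (138, 142, 108, and 101) passed the limit in opposite directions on CPM, and each lost its call under at least 1 other scaling.

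In complex IV the difference lay in few genes. Cox7a2l, which encodes a supercomplex assembly factor related to the Cox7a subunits, stood at 985 and 960 CPM in libraries 5 and 6 and at 352 and 370 in libraries 7 and 8. Its level was 2.60 to 2.80 times higher in the first pair. Cox4i1, a regulatory subunit, had 966, 970, 698, and 723, but it overlaps an annotated protein-coding gene on the same strand. Cox5a, which assembles with Cox4i1, had the opposite order, with 373 and 381 against 601 and 580. The catalytic subunits of this complex are mitochondrially encoded and summed to 39293, 39551, 23908, and 23715 CPM.

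In ATP synthase the genes of the catalytic F1 head differed in direction. Atp5b, which encodes the catalytic beta subunit, stood at 345 and 348 CPM in libraries 5 and 6 and at 666 and 650 in libraries 7 and 8. Atp5a1, the alpha subunit, had 314, 323, 506, and 471. The epsilon subunit gene Atp5e had 783 and 708 against 491 and 529, and the delta subunit gene Atp5d (369, 372, 424, and 411) and the gamma subunit gene Atp5c1 (361, 377, 316, and 295) stayed inside the limit on CPM, though Atp5c1 was lower by it with the other denominator. For 100 UMIs of the membrane subunits e, f, and g there were 199 and 210 of F1 in libraries 5 and 6, and 277 and 256 in libraries 7 and 8. For 100 UMIs of the subunit c genes the order was the other way, with 215 and 205 of F1 against 200 and 194. On CPM none of the 4 stalk genes passed the limit, and per kept cell Atp5j and Atp5o were higher by it.

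Subunit c, which forms the proton-driven ring of ATP synthase, is encoded by 3 nuclear genes that give the same mature protein with different import sequences. Atp5g2 was the leading source in libraries 5 and 6, with 53.4% (exact 95% binomial interval 53.0 to 53.9) and 54.2% (53.8 to 54.6) of the family's UMIs, and had 37.1% (36.7 to 37.4) and 37.0% (36.6 to 37.4) in libraries 7 and 8. Atp5g1 had 32.0% and 31.5% against 44.9% and 45.6%, and was the leading source there. Atp5g3 had 14.6%, 14.3%, 18.0%, and 17.4%. Shares within a family do not depend on the denominator. In CPM, Atp5g1 stood at 323, 327, 540, and 554, Atp5g2 at 539, 562, 446, and 449, and Atp5g3 at 148, 148, 216, and 211. Reads that fit several copies or their pseudogenes could not be placed with certainty.

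Of the other families, Cox7a was led by the assembly factor gene Cox7a2l, and the rest were each led by a broadly expressed isoform. Cox4i1 gave nearly all Cox4 UMIs, with 13 UMIs of Cox4i2 over all cells. The testis isoform Cox6b2 held 1.85%, 1.56%, 0.470%, and 0.477% of Cox6b UMIs, from 315, 296, 104, and 78 UMIs, and was the member with the widest difference downward. Cox7a2l gave 77.0%, 77.7%, 53.4%, and 53.8% of the UMIs of the Cox7a family, and Cox7a2 22.9%, 22.2%, 46.5%, and 46.1%. The level of Cox7a2 itself was 293, 274, 306, and 317 CPM, so its share differed while its level stayed inside the limit. Cox7a1, a muscle isoform, had 154 UMIs in 0.788% of cells and fell below the detection limit, as did Ndufa4l2 with 4 UMIs and a second Atp5o identifier with 2. Cox7b2, Cox8b, and Cox8c had 0 UMIs, which allows up to 3 UMIs in 205790408 UMIs counted over all kept cells.

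**Figure D4:**
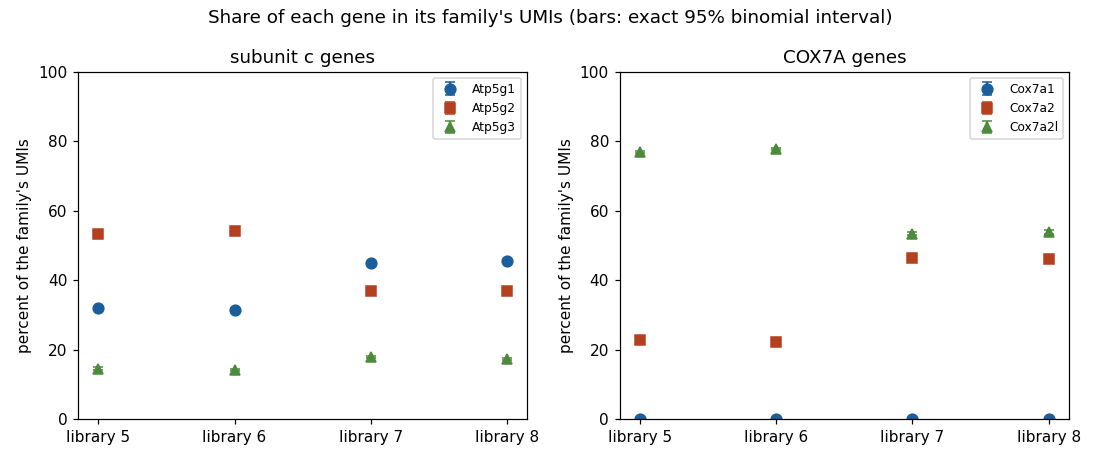
Percent of the UMIs of the subunit c family and of the Cox7a family (vertical axes, 0 to 100) that came from each gene in libraries 5 to 8, with exact 95% binomial intervals as bars. Atp5g1 lies below Atp5g2 in libraries 5 and 6 and above it in libraries 7 and 8, and Cox7a2l lies at 77.0% and 77.7% in libraries 5 and 6 and at 53.4% and 53.8% in libraries 7 and 8.

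Promoters of the subunit c family and of 3 members with wide differences are printed to show their sequences beside the values above. Each runs from 250 bases before to 50 bases after a transcription start in RefSeq, on GRCm38.p6, and is written 5′ to 3′ on the gene's strand in lower case. Only the first start listed for a gene was taken. For Atp5g2, Ndufa12, and Cox7a2l the whole window lies inside the annotated gene, and sequence at its outer end was not searched. Capitals mark the letters searched on both strands: GCATGCGC (NRF-1), CCGGAAG (ETS), AAGATGGC (YY1), and GGGCGG (SP). NRF-1, ETS factors such as GABP, and YY1 are known regulators of respiratory genes. The first 3 sequences are the subunit c genes, followed by Ndufa12, Ndufa3, and Cox7a2l.
Atp5g1: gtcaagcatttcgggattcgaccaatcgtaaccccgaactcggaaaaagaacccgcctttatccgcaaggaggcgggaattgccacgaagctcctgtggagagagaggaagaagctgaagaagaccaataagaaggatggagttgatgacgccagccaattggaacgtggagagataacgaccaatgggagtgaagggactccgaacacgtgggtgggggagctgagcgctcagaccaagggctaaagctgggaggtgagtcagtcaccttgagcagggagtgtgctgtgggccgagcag
Atp5g2: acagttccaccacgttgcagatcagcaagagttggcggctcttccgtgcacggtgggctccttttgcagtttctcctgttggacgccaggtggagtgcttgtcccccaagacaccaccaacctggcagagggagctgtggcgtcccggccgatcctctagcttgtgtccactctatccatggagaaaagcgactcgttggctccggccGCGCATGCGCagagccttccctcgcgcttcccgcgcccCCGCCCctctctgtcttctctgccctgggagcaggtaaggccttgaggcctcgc
Atp5g3: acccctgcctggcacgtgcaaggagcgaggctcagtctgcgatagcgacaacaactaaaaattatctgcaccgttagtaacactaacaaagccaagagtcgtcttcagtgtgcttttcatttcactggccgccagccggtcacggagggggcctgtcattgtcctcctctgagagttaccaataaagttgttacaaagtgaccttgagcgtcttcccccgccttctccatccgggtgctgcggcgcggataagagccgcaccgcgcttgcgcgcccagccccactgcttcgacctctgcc
Ndufa12: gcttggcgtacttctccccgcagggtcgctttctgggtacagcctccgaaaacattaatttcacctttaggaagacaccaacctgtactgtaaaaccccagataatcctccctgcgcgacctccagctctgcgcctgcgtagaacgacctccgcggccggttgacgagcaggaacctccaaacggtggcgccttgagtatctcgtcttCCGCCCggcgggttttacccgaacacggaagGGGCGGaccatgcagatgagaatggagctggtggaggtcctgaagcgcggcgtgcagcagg
Ndufa3: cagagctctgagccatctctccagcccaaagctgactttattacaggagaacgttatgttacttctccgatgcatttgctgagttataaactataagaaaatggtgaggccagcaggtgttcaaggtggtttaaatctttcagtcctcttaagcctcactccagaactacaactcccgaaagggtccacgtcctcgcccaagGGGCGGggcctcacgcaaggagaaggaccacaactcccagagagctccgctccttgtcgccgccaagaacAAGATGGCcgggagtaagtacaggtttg
Cox7a2l: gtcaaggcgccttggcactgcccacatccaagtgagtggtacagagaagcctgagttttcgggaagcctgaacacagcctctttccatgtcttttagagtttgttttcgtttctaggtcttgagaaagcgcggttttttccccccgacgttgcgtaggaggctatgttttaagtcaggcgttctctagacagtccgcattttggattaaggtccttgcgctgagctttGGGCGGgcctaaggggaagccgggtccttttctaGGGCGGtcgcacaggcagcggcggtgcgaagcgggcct
They lie at chr11:96075582-96075881, chr15:102670998-102671297, chr2:73911277-73911576, chr10:94198785-94199084, chr7:3617123-3617422, and chr17:83514284-83514583, in that order. Among the subunit c genes, Atp5g2 alone held NRF-1 letters in the window printed, as a palindrome that gives overlapping matches from 42 and 40 bases before the start. Ndufa12 and Cox7a2l each held SP letters at 2 places, and Ndufa3 held SP letters before its start and YY1 letters after it.

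Of the 73 members, 62 had a window in the RefSeq table. NRF-1 letters stood in 14.5% of these (9 windows) and in 2.80% of all 27025 windows of that length, YY1 letters in 14.5% and 2.88%, ETS letters in 21.0% and 9.12%, and SP letters in 40.3% and 35.9%. The members' windows had a median GC content of 57.3%, against 52.7% for all. With subunits grouped by their calls on CPM alone, NRF-1 letters were in 1 of 14 windows of higher and 1 of 13 of lower subunits. They were in 7 of 35 of the others, and YY1 letters were in 3, 1, and 5. A match of letters is a description and not a binding site.

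Genes that work with the subunits were taken from lists by function. Cyc1 and Cycs, which encode the cytochromes c1 and c, and Ndufab1, the acyl carrier protein of complex I, were all higher in libraries 7 and 8. Together they had 360, 358, 902, and 892 CPM in libraries 5 to 8. Cyc1 and Ndufab1 are subunits that the symbol rule left out of the sums above, and sums with them were not computed. Cycs had 120, 119, 365, and 378 CPM. Of the 14 complex I assembly factors, 10 were higher and 1 lower (Ndufaf3), with Ndufaf4 at 33.7, 30.1, 113, and 106. Complex IV assembly had 10 higher and 5 lower of 19, and complex III assembly 3 and 1 of 6. Of the 4 ATP synthase assembly genes, Atpaf1, Atpaf2, and Tmem70 were higher, and the inhibitor gene Atpif1 was lower (171, 170, 73.8, and 79.6). These counts stand against 35.0% of all genes higher and 27.2% lower.

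Complex II, whose 4 genes lie outside the symbol rule, had 1 higher (Sdhd) and 0 lower. The tricarboxylic acid cycle, which supplies NADH and succinate, had 5 higher and 1 lower of 13, with Mdh2 at 146, 155, 300, and 289 CPM and Suclg2 at 98.3, 98.2, 39.2, and 37.7. Of 6 carriers, Slc25a5, an ADP/ATP translocase, was higher (382, 379, 980, and 905), and so was Vdac3. Of 12 detected regulators of mitochondrial genes, 7 were higher and 0 lower, among them Nrf1 (20.1, 22.0, 33.9, and 30.3) and Myc (15.3, 15.4, 63.8, and 60.0). Of the mitochondrial ribosomal protein genes, 55 of 77 were higher and 1 lower. All genes had 35.0% higher and 27.2% lower. The share of the cycle that was higher is near the first value, while only 1 of its 13 genes was lower. Calls of these genes were made on CPM only.

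Cells with at least 2 UMIs of the proliferation marker Mki67 were compared with cells that had 0, inside each library. The 73 subunits summed to 19663 against 19408 CPM in library 5, 19340 against 18969 in library 6, 17720 against 18596 in library 7, and 17988 against 19199 in library 8. On CPM the Mki67 cells were thus higher in libraries 5 and 6 and lower in libraries 7 and 8, but with the denominator that leaves out mitochondrial, ribosomal protein, and immunoglobulin genes they were lower in each library (0.934, 0.949, 0.947, and 0.928 times the level of cells with 0). ATP synthase had the split on both scales (6196 against 5651 in library 5 and 5925 against 6145 in library 7), and complexes III and IV were lower in Mki67 cells in each library on both. Mitochondrially encoded genes split the other way, with 63926 against 73311 in library 5 and 50939 against 47180 in library 7. The groups held 273, 365, 286, and 228 Mki67 cells, whose median depth was 17844, 18413, 16686, and 16449 UMIs, against 8465, 8502, 10119, and 9862 in cells with 0.

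**Figure D5:**
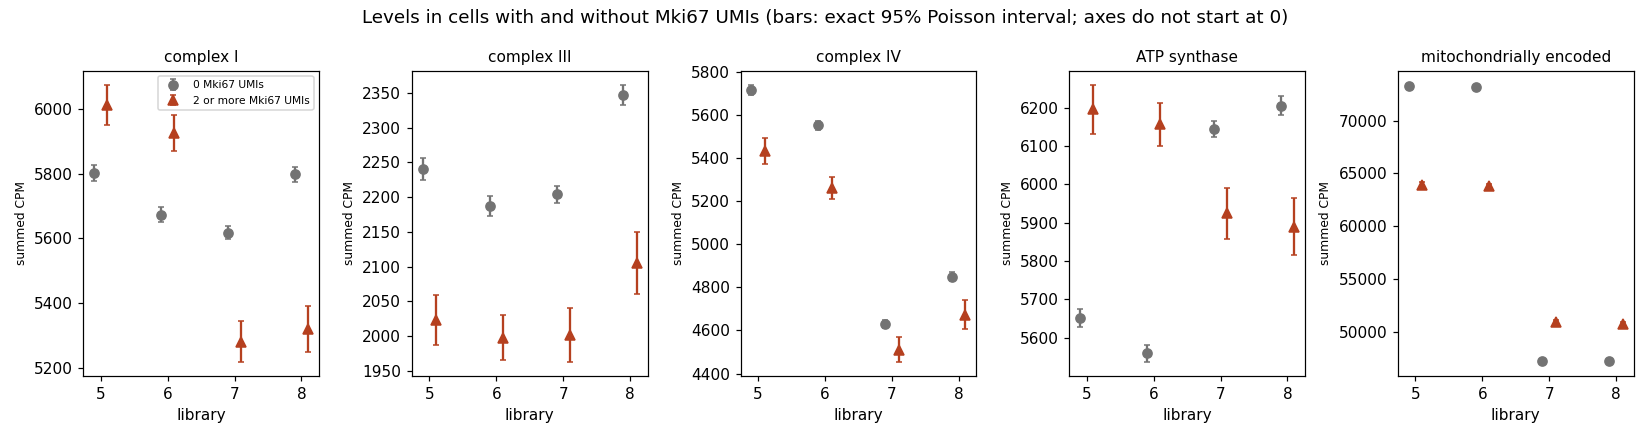
Summed CPM (vertical axes, which do not start at 0) of each complex and of the mitochondrially encoded genes in cells with 0 and with at least 2 Mki67 UMIs, for libraries 5 to 8, with exact 95% Poisson intervals as bars. In complexes III and IV the Mki67 cells lie lower in each library, and in ATP synthase they lie higher in libraries 5 and 6 and lower in libraries 7 and 8. Depth was not matched.

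Among single subunits, 1 passed the 25% limit in Mki67 cells of all 4 libraries (Cox6a2), against 8.71% of all genes higher, and 0 passed the limit downward, against 2.49%. Cox6a2 encodes the heart and skeletal muscle isoform of subunit VIa. It stood at 15.02 against 1.07 CPM in library 5, 10.1 against 0.668 in library 6, 5.67 against 3.16 in library 7, and 8.77 against 2.98 in library 8. It was seen in few cells. In library 5 its 137 UMIs lay in 54 cells, of which 32 (59.3%, interval 45.0 to 72.4) had at least 2 Mki67 UMIs, as did 6.51% of all kept cells there. In library 7, 13 of 118 such cells did (11.0%, interval 5.998 to 18.1), against 5.09% of all cells. The cells with Cox6a2 in libraries 5 and 6 were deep (median 17183 and 15865 UMIs), and depth was not matched in this comparison. Uqcrh was lower in Mki67 cells of each library, with log2 ratios of -0.55, -0.59, -0.27, and -0.32, and Atp5g2 was higher, with 0.39, 0.31, 0.19, and 0.14.

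Cells with at least 2 UMIs of Il10, the cytokine commonly used to mark regulatory B cells, differed little from cells with 0. Their subunits summed to 19970 against 19425 CPM in library 5, 19373 against 19008 in library 6, 18417 against 18736 in library 7, and 18949 against 19398 in library 8. With the other denominator the Il10 cells were lower in each library, at 0.987, 0.983, 0.970, and 0.961 times. The groups held 131, 116, 3144, and 2254 Il10 cells in libraries 5 to 8. Their median depth was 12784, 13895.5, 10968.5, and 10878 UMIs, against 8566, 8593, 9530, and 9213 in cells with 0, and depth was not matched. In this comparison 0 subunits passed the limit in either direction, against 0.621% of all genes higher and 0.573% lower. Between the 25% of cells with the most and the 25% with the fewest UMIs, 0 subunits passed it as well, against 4.82% and 1.90%. In library 7, the only library with 50 or more cells that had at least 10 UMIs of Jchain, which marks antibody-secreting cells, those 52 cells had 12818 against 18591 CPM. Immunoglobulin and Jchain RNA was 26.4% of their UMIs and 0.384% in cells without Jchain, and with these genes out of the denominator the values were 17425 and 18662.

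Detection per cell followed level and depth. The median subunit had a UMI in 82.0%, 81.5%, 85.4%, and 84.7% of the cells of libraries 5 to 8, and in 61.8%, 61.6%, 65.1%, and 63.8% after cells were thinned to 5000 UMIs each, with 158, 114, 233, and 157 shallower cells left out. After thinning, Ndufa3 was detected in 55.3% of cells in library 5 and 24.5% in library 8, and Ndufa12 in 49.95% and 78.1%. Both directions were therefore seen in the share of cells as in the level.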

How the data were processed

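The authors prepared Chromium Single Cell 3′ v3 libraries, demultiplexed them with bcl2fastq, aligned and counted with Cell Ranger 3.1.0 against mm10 (Ensembl 93 genes), and combined and normalized libraries with the aggr step. The kind of normalization is not given in the sources used here. Equalizing depth there would thin the reads of deeper libraries. The deposited values are UMI counts per gene and cell, and whether reads were thinned before counting is not known from these sources. There were 35989 matrix columns but 19920 barcodes, so the last 19920 columns were taken as the listed barcodes, in order, and the other 16069 were not used. The largest change in the level of Cox7a2l, Ndufa12, Uqcrq, and Ndufa3 along these columns fell after column 9766, where library 6 ends. No sample name goes with the library numbers, so libraries went into no group and no test was run.

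Cells with at least 1000 genes and under 10% mitochondrial UMIs were kept, and no doublets were removed here. Counts were summed per library and divided by all UMIs of its kept cells (CPM). Intervals are exact 95% Poisson or Clopper-Pearson intervals for counting error only, and ratios carry no replicate error. Alternatives were another denominator, TMM factors (edgeR 4.0.16), UMIs per cell, other cell filters, detection and fold limits, leaving out each library, and thinning. From the cytosolic ribosomal protein symbols, kinases, pseudogenes, and RNase P genes that also matched the pattern were left out. Work was done in Python 3.11.15. The calls were also run on simulated counts that held counting error only and planted changes well past the fold limit. That run cannot show how the calls behave near the limit, with differences between replicates, or with a shift of the denominator.

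Members, lists, and limits were chosen with earlier results of these data known, including that libraries 7 and 8 differ from 5 and 6. Genes named are the 3 highest and 3 lowest of each complex, the 8 largest and 8 smallest ratios, the paralog families, and genes of the lists past the limit, and other genes were chosen after their values were seen. Gene positions came from GENCODE vM21 and promoters from RefSeq GRCm38.p6. All 73 members matched vM21, and 6 (Atp5o, Cox4i1, Ndufa13, Ndufb2, Ndufb8, and Ndufb9) overlap another protein-coding entry on the same strand, so their counts are less certain.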

Additional observations from a re-analysis of the deposited data

How the results depend on the processing

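The ratio of the highest to the lowest library for the summed subunits was 1.05, and became 1.20 with the denominator without mitochondrial, ribosomal protein, and immunoglobulin genes, 1.14 with TMM factors, and 1.04 with under 5% mitochondrial UMIs or in cells without Mki67. At the lower mitochondrial limit libraries 5 and 6 kept 143 and 207 cells, and 14 subunits were higher (29.0% of all genes) and 10 lower (23.0%). The number of higher subunits was 18, and was 6 at a fold limit of 1.5 (23.9% of all genes) and 9 with that denominator. The number of lower subunits was 15, and was 23 at a fold limit of 1.1 (33.8% of all genes) and 7 at 1.5 (20.2%). Leaving out each library in turn gave 18 to 20 higher (35.9% to 39.2% of all genes) and 15 to 18 lower (28.3% to 29.95%). With that denominator the median log2 ratio of the subunits was -0.18 for libraries 7 over 5, -0.091 for 7 over 6, -0.055 for 8 over 5, and -0.010 for 8 over 6, and with TMM factors it was -0.10 for 7 over 5, so its sign depends on the scaling. For single subunits over 7 alternatives, 470 outcomes were the same, which includes subunits without a call that stayed without one. Another 26 calls were lost and 15 gained. In 0 cases did a call change direction, which was scored only for subunits with a call. The number of members was 71 to 74 under the other detection limits. No paired analysis was possible because no label ties a library to a sample or a replicate number. The library pairs cannot be assigned to culture states from the labels.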
